A study of Mus musculus with 4 samples.

Results

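The promoter of Npr3 was followed as a viewpoint in tiled Capture-C maps of mouse embryonic stem cells (mESCs), that is, by all contacts of the chromatin around the start of this gene with the rest of a captured region of chromosome 15. The members were the bin pairs with one end in the interval chr15:11827201-11840000 (mm9, 2 bins of 6.4 kb) and the other anywhere in chr15:10278401-13196800, with the bins of the 2 operator arrays left out. This rule gave 907 bin pairs of the 104196 in that region, and of 293610 bin pairs with a read anywhere in the series. At least 1 read was found for 807 to 823 of them per library and for 673 in every library. The rule used positions only and no measured contact.

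The study asked how convergent CTCF sites and cohesin shape contacts within a topologically associating domain (TAD), a stretch of chromosome that contacts itself more than its surroundings. All 4 libraries came from clonal E14 mESC lines grown in 2i medium with LIF. These carried a TetO and a LacO operator array on 1 allele of the domain, TetR-tdTomato and LacI-eGFP to label them, and RAD21-HaloTag-FKBP on both alleles, in a parental line from which internal CTCF sites of the domain had been deleted. Line 1B1 had 3xCTCF cassettes in convergent orientation beside the arrays and no promoters of resistance genes. Line 1A2 had neither cassettes nor promoters, and line 1F4 had no cassettes but retained the promoters. The fourth library, called degraded below, was 1B1 treated for 2 h with 500 nM dTAG-13, which targets FKBP-tagged RAD21, a cohesin subunit, for degradation. Each group was 1 library of 1 clone, so every difference below is between libraries with no replicate check, and line and clone cannot be told apart. The maps do not separate the allele with arrays from the one without, and neither RAD21 protein nor RNA was measured in these files.

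Npr3 encodes the natriuretic peptide clearance receptor, which binds natriuretic peptides at the cell surface and takes them up for breakdown. Cohesin is a ring complex that is thought to extrude chromatin loops, and CTCF bound to DNA halts it when its motif points towards the growing loop. Loops held in this way join pairs of convergent CTCF sites at domain boundaries. A promoter inside such a domain usually contacts its own domain more than the neighbouring ones. These statements are background and not results of these maps.

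Npr3 lies on the minus strand from 11769651 to 11835429 (NCBIM37, the assembly behind mm9, gene ENSMUSG00000022206), so its gene body extends from the viewpoint towards the gene Tars, and the opposite direction leads to Sub1. The annotated start at 11835429 fell in the second viewpoint bin (11833601 to 11840000), next to the first (11827201 to 11833600). The 300 bases around this start, chr15:11835380-11835679 on the minus strand, are shown because they define the viewpoint, with the first 50 transcribed bases in capitals:
Npr3 promoter: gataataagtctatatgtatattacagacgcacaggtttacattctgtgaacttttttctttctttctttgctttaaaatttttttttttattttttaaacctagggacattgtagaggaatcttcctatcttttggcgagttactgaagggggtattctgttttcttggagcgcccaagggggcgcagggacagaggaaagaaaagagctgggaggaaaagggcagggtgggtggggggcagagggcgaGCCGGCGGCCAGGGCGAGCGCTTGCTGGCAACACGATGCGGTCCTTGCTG
This stretch held 11 CpG dinucleotides and 47.3% G and C, and 41.4% of 32851 RefSeq promoters of the same length (GRCm38.p6) held at least as many CpGs. It held no TATAAA on either strand, which 13.6% of those promoters hold. The start that RefSeq gives for Npr3 lies 1697 bases further towards Sub1, inside the same viewpoint bin. That bin held 271 CpGs against a median of 59 over the 456 bins of the region, while the first viewpoint bin held 70. Cutting sites of MboI, the enzyme of the assay (GATC), numbered 18 and 14 in the first and second viewpoint bins against a median of 15. All sequence is from the reference genome and not from the 129-derived E14 line.

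The domain around Npr3 was delimited by boundary bins at chr15:11334401-11340800, 498 kb from the Npr3 start on the Tars side, and chr15:11891201-11897600, 59.0 kb away on the Sub1 side. The LacO bin (11494401 to 11500800) and the TetO bin (11641601 to 11648000) lay between the Tars-side boundary and the gene. A short core of the CTCF motif (CCA, 2 free letters, AGG, 1 free letter, GGC, on either strand) was searched because both boundaries recur below. The matches in the boundary bins, and the remaining match between them, are shown on the minus strand with the motif in capitals:
Tars-side boundary bin, chr15:11337301-11337328: acatgtaaCCACTAGGTGGCgaccgtct
between the Npr3 start and the Sub1-side boundary, chr15:11868044-11868071: gtgttcctCCAGGAGGAGGCattgctaa
Sub1-side boundary bin, chr15:11896308-11896335: cttttttgCCAGAAGGTGGCagcaaagc
All 3 matches shown have the same orientation, so those in the boundary bins are not a convergent pair. The region held 29 such matches, 5.92% of its bins held at least 1, and neither viewpoint bin did. Windows of 3 bins around 3 of the 10 boundaries of the region held a match, against 15.9% of all windows of 3 bins. The letters were chosen after the full CTCF core had given 4 matches in the region and 0 in this domain. A match describes letters and is no measured binding site, and where the deleted internal sites lay was not given in the sources used here.

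The members took 9556 reads in 1A2, 12258 in 1F4, 9520 in 1B1 and 9290 after degradation, of which 7157, 9178, 7419 and 6160 joined bins at least 2 bins apart. These reads were recovered from the deposited balanced signal. All errors below are counting errors of the recovered reads, which carried no molecular identifiers, so they do not cover variation between cultures or preparations. Libraries held 3214144 to 4089968 read pairs. Contact is given as observed/expected, the balanced signal divided by the mean over all bin pairs of the region at the same separation, so that 1 is the region's mean and the general loss of contact with distance is removed. A percentile ranks the Npr3 value among the other viewpoints of 2 bins with a partner block of the same shape and distance, as a description and not a test.

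In the 3 untreated libraries the strongest contact of the Npr3 promoter beyond its vicinity was with the Tars-side boundary, and this contact was lower after cohesin degradation. In the window of 3 bins around that boundary, observed/expected contact was 6.22 ± 0.44 (204 reads), 7.30 ± 0.43 (291 reads) and 5.76 ± 0.41 (195 reads) in lines 1A2, 1F4 and 1B1 and 3.10 ± 0.38 (65 reads) after degradation. The 3 untreated libraries were all above the degraded one by more than the counting errors. In the degraded library the contact was still above the region's mean for this distance, but it was no longer the highest, since windows around Amacr reached up to 4.75 ± 0.70 (49 reads). Among 371 other viewpoints with a window at the same offset, Npr3 was at percentile 100 in 1A2 and 1B1, 99.7 in 1F4 and 99.5 after degradation.

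**Figure D1:**
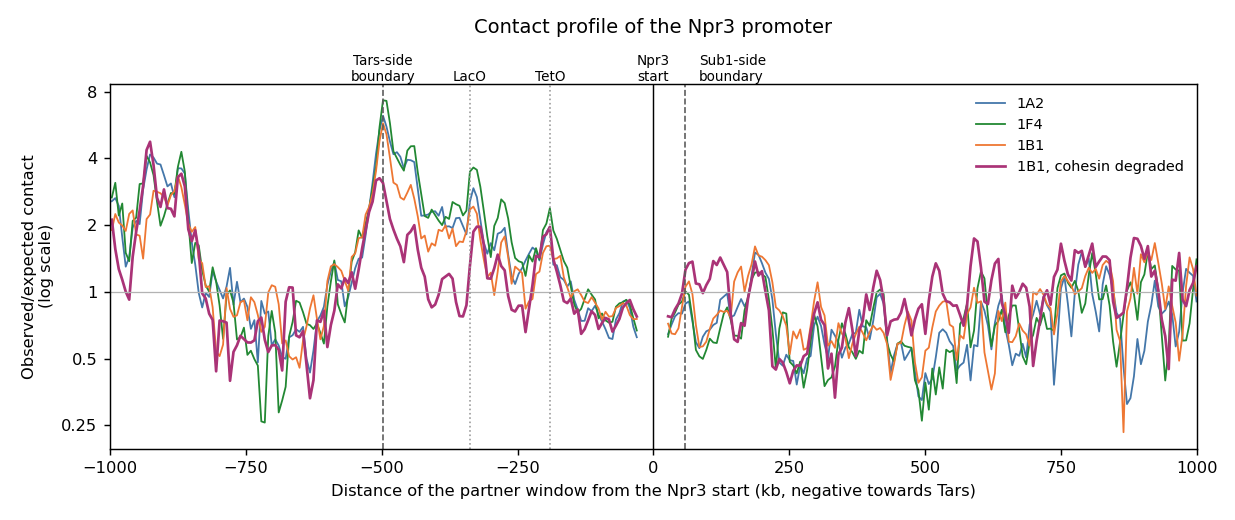
Observed/expected contact of the Npr3 promoter (log scale) in windows of 3 bins against distance from the Npr3 start in kb, 1 line per library, with dashed lines at the domain boundaries and dotted lines at the arrays. The value at the Tars-side boundary is 6.22, 7.30 and 5.76 in the untreated lines and 3.10 in the degraded library.

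The boundary contact was 1.86-fold lower after degradation than in untreated 1B1, a log2 ratio of −0.89 ± 0.21. The same ratio over the other viewpoints had an SD of 0.71, and Npr3 was at percentile 9.97, so ratios of this size were not rare at this distance. Without division by the expected value the log2 ratio was −1.55 ± 0.21. Among the untreated lines the contact differed less, with log2 ratios of −0.11 ± 0.14 for 1B1 against 1A2, −0.34 ± 0.13 for 1B1 against 1F4 and 0.23 ± 0.13 for 1F4 against 1A2. Near the boundary, the highest window was centred on the boundary bin in all 3 untreated libraries. In the degraded library the highest window of this stretch was centred on the neighbouring bin (11328001 to 11334400), which holds the start of Tars, at 3.25 ± 0.37 (85 reads). These windows share 2 of their 3 partner bins, and their values in the degraded library differed by less than either counting error.

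Each viewpoint bin alone showed this contact. From the first viewpoint bin the boundary value was 5.22 ± 0.56, 6.09 ± 0.55 and 4.91 ± 0.53 in lines 1A2, 1F4 and 1B1 and 2.08 ± 0.44 after degradation. From the bin with the Npr3 start it was 7.22 ± 0.67, 8.55 ± 0.66, 6.63 ± 0.63 and 4.11 ± 0.63 in the same order. The bin with the start had the higher value in all 4 libraries, and the degraded library was the lowest from either bin.

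Averaged over stretches of the domain, contact was highest at the Tars-side boundary and declined towards the gene. Between that boundary and LacO (24 bins) observed/expected contact was 2.86 ± 0.10, 3.12 ± 0.09 and 2.26 ± 0.08 in lines 1A2, 1F4 and 1B1 and 1.32 ± 0.08 after degradation. Between LacO and TetO (22 bins) the values were 1.66 ± 0.07, 1.95 ± 0.07, 1.37 ± 0.06 and 1.29 ± 0.08 in the same order. Between TetO and the gene (19 bins) they were 0.847 ± 0.033, 0.982 ± 0.032, 0.942 ± 0.034 and 0.798 ± 0.036. The Npr3 promoter therefore contacted the far part of its domain above the mean for the distance, and the near part at or below it.

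**Figure D2:**
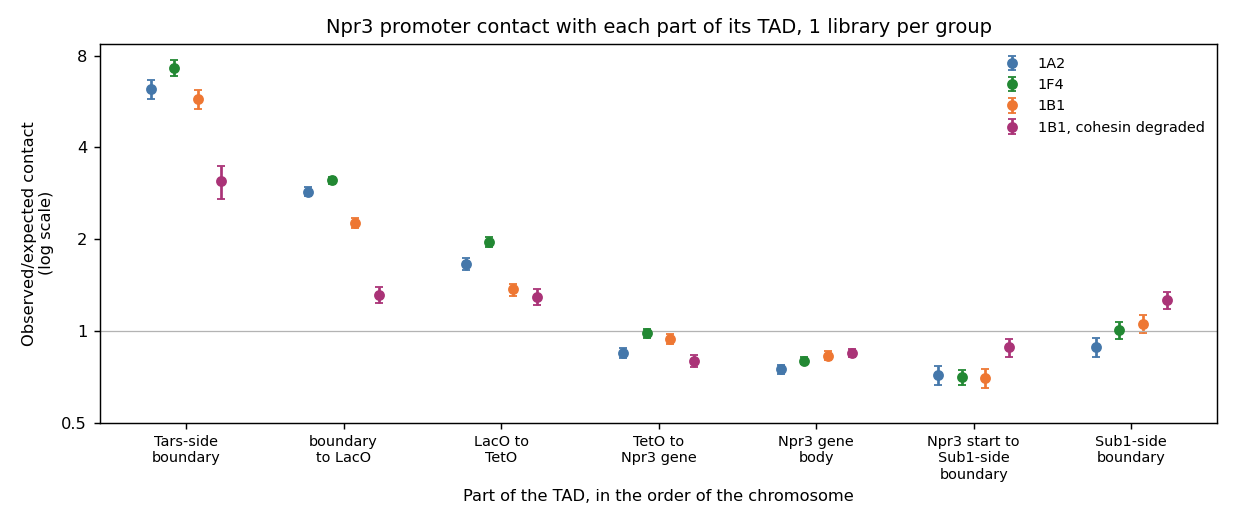
Observed/expected contact (log scale) of the Npr3 promoter with each part of its domain, in chromosome order, in the 4 libraries, with bars for counting errors. Values decline from the Tars-side boundary to the stretch between TetO and the gene in every library, and the degraded library is the lowest up to that stretch.

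As observed/expected, the lower contact after degradation lay mostly at the far end of the domain. Between the boundary and LacO the log2 ratio of the degraded library to 1B1 was −0.78 ± 0.10, 1.72-fold lower and at percentile 4.29 of 373 viewpoints. Between LacO and TetO it was −0.08 ± 0.11, which is within the counting error. Between TetO and the gene it was −0.24 ± 0.08, at percentile 21.6 of 421. Without division by the expected value, mean balanced contact was lower after degradation than in 1B1 in each of these stretches. It was 26.3 against 75.1 between the boundary and LacO and 39.4 against 66.3 between LacO and TetO. Between TetO and the gene it was 55.5 against 86.1. The 10 bins just inside the Tars-side boundary and the 10 just outside it were set apart after the profile was seen. Inside, contact was 4.11 ± 0.19, 4.56 ± 0.18 and 3.09 ± 0.16 in lines 1A2, 1F4 and 1B1 and 1.82 ± 0.15 after degradation. Outside, it was 2.34 ± 0.14, 2.33 ± 0.13, 2.32 ± 0.14 and 2.02 ± 0.17 in the same order. Seen from the Npr3 promoter, the inside was thus above the outside in the untreated lines, while in the degraded library the inside was below the outside by less than the sum of their counting errors.

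As observed/expected, line 1B1 was lower than the lines without 3xCTCF in both stretches between the Tars-side boundary and TetO. On this scale the degraded library was lower than 1B1 beyond the counting error in the farther of them only. In balanced contact without division by the expected value it was lower than 1B1 in both. Between the Tars-side boundary and LacO the log2 ratio of observed/expected contact in 1B1 was −0.34 ± 0.07 to 1A2 and −0.46 ± 0.07 to 1F4, at percentiles 1.07 and 0.268. Between LacO and TetO the ratios were −0.28 ± 0.09 and −0.52 ± 0.09, at percentile 1.01 and below all of 398 viewpoints. Both comparisons share the 1B1 library. The lines without 3xCTCF also differed from each other, with a log2 ratio of 1F4 to 1A2 of 0.24 ± 0.08 between LacO and TetO and 0.21 ± 0.07 between TetO and the gene.

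The contacts of the promoter with its own gene body differed from 1B1 by less than the counting error after degradation once the expected value was divided out. Over the 8 bins of the body at least 2 bins from the viewpoint, observed/expected contact was 0.749 ± 0.026 (949 reads), 0.799 ± 0.023 (1350 reads) and 0.829 ± 0.027 (1035 reads) in lines 1A2, 1F4 and 1B1 and 0.847 ± 0.026 (1227 reads) after degradation. The log2 ratio of the degraded library to 1B1 was 0.03 ± 0.06, at percentile 56.4 of 440. It was 0.16 ± 0.06 without the expected value and 0.14 ± 0.10 from the start bin alone, beyond the counting error in both. On the opposite side, the 8 bins that mirror the gene body had 0.736 ± 0.048, 0.736 ± 0.040, 0.721 ± 0.046 and 0.897 ± 0.057 in the same order. The body and its mirror differed by more than the sum of their counting errors in 1B1 alone, and both stretches were below the region's mean for their distance.

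As balanced observed/expected, contact towards Sub1 short of the boundary was low in the untreated lines and higher after degradation. Between the viewpoint and the Sub1-side boundary it was 0.716 ± 0.051, 0.704 ± 0.042 and 0.699 ± 0.048 in lines 1A2, 1F4 and 1B1 and 0.882 ± 0.060 after degradation, a log2 ratio of 0.33 ± 0.14 to 1B1 at percentile 90.0 of 441. The 7 bins of this stretch all lie within the 8 that mirror the gene body. Their ratio rested on 553 reads after degradation and 456 in 1B1 and was not recomputed in unbalanced reads. In the window around the Sub1-side boundary, contact was 0.885 ± 0.064, 1.00 ± 0.06, 1.05 ± 0.07 and 1.26 ± 0.08 in the same order, and the log2 ratio was 0.25 ± 0.13 at percentile 74.9 of 439. In unbalanced reads this boundary ratio was 0.04 ± 0.13, so no difference there held under both scales. In the untreated lines the Sub1-side boundary was thus near the region's mean for its distance, unlike the Tars-side boundary. In the degraded library its balanced contact was above that mean. The first 15 bins beyond it, also chosen after the profile was seen, had 0.750 ± 0.046, 0.657 ± 0.033, 0.837 ± 0.055 and 1.18 ± 0.05, a log2 ratio of 0.49 ± 0.12 to 1B1 at percentile 89.2 of 425 viewpoints, whose ratios had an SD of 0.39. The next 15 bins had 0.975 ± 0.059, 0.907 ± 0.051, 1.13 ± 0.06 and 0.816 ± 0.066, and there the ratio was −0.47 ± 0.14, at percentile 11.5 of 410 with an SD of 0.46. In this second stretch 1B1 had the highest value of the 4 libraries.

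Over 640 kb on each side, the Npr3 promoter contacted the Tars side more than the Sub1 side in the untreated lines, and the sides differed by less than the counting error after degradation. The log2 ratio of Tars-side to Sub1-side balanced contact was 0.79 ± 0.05, 0.99 ± 0.05 and 0.61 ± 0.05 in lines 1A2, 1F4 and 1B1 and 0.05 ± 0.06 after degradation. These are 1.73-fold, 1.98-fold, 1.52-fold and 1.03-fold more contact on the Tars side. The difference between the degraded library and 1B1 was −0.56 ± 0.07, at percentile 10.0 of 250 viewpoints, whose differences had an SD of 0.42. It was smaller, −0.30 ± 0.09, over 50 bins a side and −0.40 ± 0.06 in unbalanced reads. The difference between 1B1 and 1A2 was −0.18 ± 0.07 (percentile 4.40), between 1B1 and 1F4 −0.38 ± 0.07 (percentile 0.400) and between 1F4 and 1A2 0.20 ± 0.07 (percentile 98.8). The start of Sub1, just across the nearer boundary, had the opposite sidedness, with log2 ratios of −1.29, −1.44 and −1.34 in the untreated lines and −0.56 after degradation. Of the 14 other gene starts with 640 kb of the region on each side, 8 had a ratio nearer to 0 after degradation than in 1B1 and 6 had one farther from 0. Zfr, farther along the Sub1 side, was among the latter, with −0.43 in 1B1 and −1.13 after degradation, and Rxfp3 changed sign, from −0.13 to 0.36. Among those nearer to 0, SNORA17, a small nucleolar RNA gene beyond the Tars-side boundary, had 0.88, 0.93 and 0.86 in the untreated lines and 0.39 after degradation, and the microRNA gene AC150660.1 had 0.69, 0.78 and 0.67 against 0.02.

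**Figure D3:**
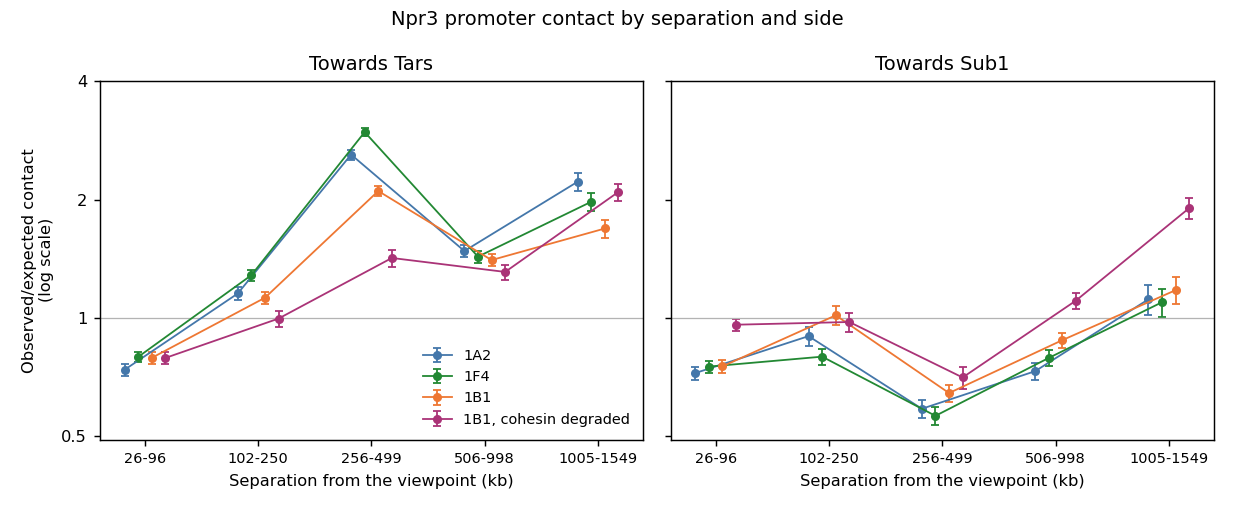
Observed/expected contact (log scale) of the Npr3 promoter by band of separation in kb, towards Tars (left) and towards Sub1 (right), with points for libraries and bars for counting errors. In the third band towards Tars the untreated lines have 2.60, 2.97 and 2.10 and the degraded library 1.42, while towards Sub1 all 4 lie below 1.

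The difference between the sides was widest in the band from 256.0 to 499.2 kb, which ends near the Tars-side boundary. Towards Tars, contact there was 2.60 ± 0.07 (1438 reads), 2.97 ± 0.07 (2024 reads) and 2.10 ± 0.06 (1241 reads) in lines 1A2, 1F4 and 1B1 and 1.42 ± 0.07 (500 reads) after degradation. Towards Sub1 it was 0.588 ± 0.032, 0.564 ± 0.029, 0.645 ± 0.033 and 0.706 ± 0.044 in the same order. Close to the promoter, from 25.6 to 96.0 kb, the Tars side had 0.738 ± 0.027, 0.796 ± 0.025, 0.792 ± 0.028 and 0.791 ± 0.028 and the Sub1 side 0.724 ± 0.028, 0.753 ± 0.026, 0.754 ± 0.028 and 0.961 ± 0.033. At this short range, the degraded library differed from 1B1 towards Sub1 and not towards Tars beyond the counting errors.

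Without division by the expected value, and with both sides together, the log2 ratio of balanced contact in the degraded library to 1B1 was 0.10 ± 0.05 in the band from 25.6 to 96.0 kb. It was −0.66 ± 0.07 in the next band, up to 249.6 kb, −1.08 ± 0.07 in the band that ends at 499.2 kb and −0.46 ± 0.06 in the one that ends at 998.4 kb. In the outermost band, from 1004.8 to 1548.8 kb, it was 0.28 ± 0.08. The medians over 449 viewpoints were −0.07, −0.53, −0.70, −0.54 and −0.23 in the same order. As shares of the promoter's recovered reads, the ratios of Npr3 were 0.38 ± 0.04, −0.32 ± 0.05, −0.82 ± 0.06, −0.16 ± 0.05 and 0.63 ± 0.07, of the same signs and different sizes. On the balanced scale Npr3 had less contact in the 3 middle bands, as the median viewpoint did, and was at percentile 7.35 in the band that ends at 499.2 kb. In the outermost band, where the ratio of Npr3 was above 0 and the median below it, Npr3 was at percentile 93.1. There, towards Tars, observed/expected contact was 2.22 ± 0.12, 1.97 ± 0.10, 1.69 ± 0.09 and 2.09 ± 0.10 in 1A2, 1F4, 1B1 and degraded, so the degraded library lay between the untreated lines. Towards Sub1, observed/expected contact was 1.12 ± 0.10 (161 reads), 1.10 ± 0.09 (187 reads) and 1.18 ± 0.09 (194 reads) in lines 1A2, 1F4 and 1B1 and 1.90 ± 0.12 (302 reads) after degradation.

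The share of the promoter's contacts inside its domain was highest in 1F4 and differed little between 1B1 and the degraded library. Of the balanced contact at least 2 bins from the viewpoint, 55.9% ± 0.7, 61.0% ± 0.6 and 52.8% ± 0.7 lay inside the domain in lines 1A2, 1F4 and 1B1 and 51.6% ± 0.8 after degradation. The log2 ratio was −0.03 ± 0.03 for the degraded library against 1B1, −0.08 ± 0.03 for 1B1 against 1A2, −0.21 ± 0.02 for 1B1 against 1F4 and 0.13 ± 0.02 for 1F4 against 1A2. With pairs under 3 bins left out as well, these ratios were −0.12 ± 0.03, −0.09 ± 0.03, −0.23 ± 0.02 and 0.14 ± 0.02 in the same order. The degraded library differed from 1B1 by more than the counting error under both settings, but only narrowly under the first (−0.032 ± 0.029). The same ratio was 0.0007 ± 0.0404 with the start bin alone and −0.011 ± 0.033 with the domain ends moved in by 3 bins. Both lay within the counting error, so this difference did not hold under all settings. The share beyond the Sub1-side boundary was 25.1%, 23.0% and 29.4% in the untreated lines and 30.8% after degradation.

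Insulation is the log2 mean contact across a site within 20 bins relative to the region's mean, and is low at boundaries. At the Npr3 promoter it was −0.64 ± 0.03, −0.66 ± 0.02 and −0.53 ± 0.03 in lines 1A2, 1F4 and 1B1 and −0.39 ± 0.03 after degradation, at percentiles 7.73 to 9.90 of 414 sites. Fewer contacts thus crossed the Npr3 promoter than most sites of the region in every library. The difference between the degraded library and 1B1 was 0.14 ± 0.04, at percentile 69.1. It was 0.057 ± 0.058 with a square of 10 bins and 0.027 ± 0.028 in unbalanced reads, within the counting error in both, so this difference did not hold under all settings. At the Tars-side boundary the corresponding difference was 0.68, and at the Sub1-side boundary, whose square overlaps that of the promoter, it was 0.24. Between untreated lines, the difference at the promoter was 0.13 ± 0.04 for 1B1 against 1F4 and 0.11 ± 0.04 for 1B1 against 1A2. These were at percentiles 97.8 and 94.4. They were 0.13 ± 0.05 and 0.18 ± 0.06 with a square of 10 bins and 0.092 ± 0.027 and 0.050 ± 0.028 in unbalanced reads. For 1F4 against 1A2 the difference was −0.02 ± 0.04.

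Sliding the partner window of 3 bins over the region gave 446 windows, of which 180 held at least 20 reads in each library, 78 of them in the domain, 43 beyond the Tars-side boundary and 59 beyond the Sub1-side boundary. Neighbouring windows share bins and are not independent. After degradation 28 of the 180 windows (15.6%) were at least 1.5-fold lower than in 1B1, against 9.45% of 57000 windows of this shape in the region, and 19 (10.6%) were at least 1.5-fold higher, against 13.6%. With at least 50 reads in each library the order against the background turned round, 4 of 70 windows (5.71%) being lower against 6.68% and 9 (12.9%) higher against 8.59%. With windows of 5 partner bins, 39 of 319 (12.2%) were lower against 9.27% and 48 (15.0%) higher against 14.2%. Neither count against the background therefore held under all settings. The median log2 ratio was −0.08 over the 180 and 0.05 over all windows. The lower windows lay in the domain (21) or beyond the Sub1-side boundary (7). Of the higher windows 15 lay beyond the Sub1-side boundary, 4 beyond the Tars-side boundary and 0 in the domain.

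**Figure D4:**
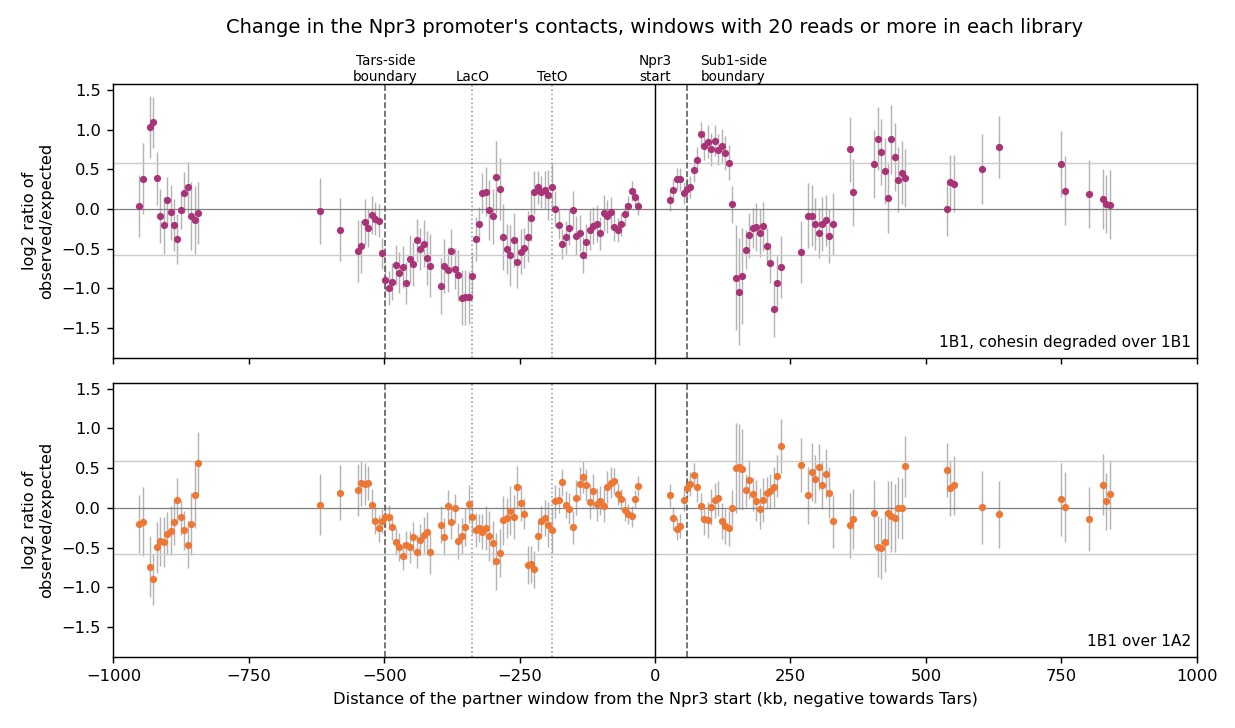
Log2 ratio of observed/expected contact of the Npr3 promoter against distance from the Npr3 start in kb, within 1000 kb, for windows with at least 20 reads in each library, with the degraded library over 1B1 in the top panel and 1B1 over 1A2 in the bottom panel. Bars are counting errors and pale horizontal lines mark 1.5-fold. In the top panel 21 of the 78 windows of the domain lie below the lower line and 0 above the upper one. Over all windows of the region 9.45% were lower and 13.6% higher. Neighbouring windows share bins, and the counts changed with the settings.

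Fewer windows passed 1.5-fold between the untreated lines. In 1B1 against 1A2, 10 windows were lower (5.56%, against 2.89% of all windows) and 1 was higher (0.556%, against 3.77%). In 1B1 against 1F4, 22 were lower (12.2%, against 2.92%), 15 of them in the domain, and 11 were higher (6.11%, against 3.78%), 10 of them beyond the Sub1-side boundary. The share of higher windows was below that of all windows in unbalanced reads (4 of 180, 2.22% against 2.95%), with the start bin alone as viewpoint (2 of 88, 2.27% against 3.60%) and with at least 50 reads in each library (0 of 70, against 0.774%), while that of lower windows was above it in each setting tried. In 1F4 against 1A2, 5 were lower (2.78%, against 3.39%) and 2 were higher (1.11%, against 2.73%). With the start bin alone as viewpoint both of these shares were above those of all windows, at 5 of 88 lower (5.68% against 3.49%) and 7 higher (7.95% against 2.57%). At the settings of the report, in all 4 comparisons, 0 windows of the domain were at least 1.5-fold higher.

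Among windows at least 10 bins away and with at least 20 reads in each library, peaks were taken as windows with no higher one within 5 bins, so that neighbours that share bins were listed once. The 5 peaks with the highest mean contact in the untreated lines were the Tars-side boundary and those at Rxfp3, in Amacr, in 4930556M19Rik and next to LacO. The window at Rxfp3, which encodes the relaxin-3 receptor, lay 869 kb away and had 3.60 ± 0.43, 4.28 ± 0.44 and 2.96 ± 0.36 in lines 1A2, 1F4 and 1B1 and 3.41 ± 0.45 after degradation. The window in Amacr, the gene for an enzyme of branched fatty acid breakdown, lay 920 kb away and had 4.03 ± 0.59, 3.36 ± 0.48, 2.86 ± 0.47 and 3.73 ± 0.61 in the same order. The log2 ratio of the degraded library to 1B1 was 0.20 ± 0.26 at Rxfp3 and 0.38 ± 0.34 in Amacr, so neither of these distant contacts beyond the Tars-side boundary had a lower value after degradation. The window next to LacO, 331 kb away, borders the left-out LacO bin and had 2.93 ± 0.30, 3.63 ± 0.29, 2.42 ± 0.26 and 1.87 ± 0.29.

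Among the windows with at least 20 reads in each library, those with the most extreme ratios after degradation, again with none more extreme within 5 bins, were picked by those ratios and are given as a description. The lowest ratio lay 219 kb away in Zfr, which encodes a zinc finger RNA-binding protein, with 0.924 ± 0.121, 0.680 ± 0.095 and 1.10 ± 0.13 in lines 1A2, 1F4 and 1B1 and 0.462 ± 0.100 after degradation, 2.39-fold lower than 1B1. The other low ones lay 357, 155, 491 and 395 kb away and were 1.96-fold to 2.17-fold lower, and 3 of these 4 lay between the Tars-side boundary and LacO. The log2 ratio 155 kb away had a wide error, −1.04 ± 0.68. The window 491 kb away overlaps that around the Tars-side boundary and is no separate result. The highest ratio lay 1195 kb away in Rai14, with 2.26-fold more contact on 20 and 32 reads. Contact there was 2.73 ± 0.56, 1.93 ± 0.43 and 1.51 ± 0.34 in lines 1A2, 1F4 and 1B1 and 3.40 ± 0.64 after degradation. Line 1B1 was thus the lowest. In the overlapping window at the Rai14 start the log2 ratio was 0.11 ± 0.37. The highest ratio was followed by the window at the start of Amacr, 2.13-fold higher, and by one in Sub1, 84.6 kb away, 1.92-fold higher and resting on 151 and 232 reads.

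The starts of all other genes of the region were taken as partners without regard to how they moved. Of 32 such starts, 21 of them of protein-coding genes, 18 had windows with at least 20 reads in each library, and these fell in 15 distinct windows. After degradation 1 of the 18 was at least 1.5-fold lower than in 1B1 and 3 were at least 1.5-fold higher. Over all windows of the region these shares were the 9.45% and 13.6% given above.

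Tars and Sub1 are the protein-coding genes whose starts lie nearest outside the domain on either side. Tars, the gene for threonyl-tRNA synthetase, starts 506 kb away in the bin beside the Tars-side boundary, and its window had 5.36 ± 0.39, 5.53 ± 0.36 and 4.79 ± 0.36 in lines 1A2, 1F4 and 1B1 and 3.25 ± 0.37 after degradation, a log2 ratio of −0.56 ± 0.20. This ratio was past 1.5-fold with windows of 5 partner bins (−0.62 ± 0.16) and with a median over each separation in place of the mean (−0.63 ± 0.20). This window shares 2 of its 3 bins with the boundary window, so contact with the gene and with the boundary could not be resolved. Sub1, the gene for a transcriptional coactivator, starts 91.3 kb away across the Sub1-side boundary, and had 0.627 ± 0.059 (133 reads), 0.498 ± 0.047 (133 reads) and 0.568 ± 0.054 (127 reads) in lines 1A2, 1F4 and 1B1 and 0.987 ± 0.078 (182 reads) after degradation. The Sub1 start was thus contacted below the mean for its distance in the untreated lines and at the mean after degradation. Its log2 ratio was 0.80 ± 0.18, at percentile 94.7 of 434 viewpoints.

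Farther along the Sub1 side, the Zfr start at 212 kb had 1.14 ± 0.13, 0.924 ± 0.101, 1.32 ± 0.13 and 0.824 ± 0.121 in the order 1A2, 1F4, 1B1 and degraded, 1.60-fold lower after degradation than in 1B1. Its log2 ratio, −0.68 ± 0.26, was −0.57 ± 0.25 in unbalanced reads, under 1.5-fold. Mtmr12, which encodes a myotubularin-related protein, had 0.773 ± 0.121, 0.698 ± 0.101, 1.10 ± 0.14 and 0.897 ± 0.159 and did not pass 1.5-fold. Golph3, the gene for a Golgi phosphoprotein, had 0.980 ± 0.175, 1.02 ± 0.16, 0.687 ± 0.138 and 1.13 ± 0.23 and was 1.64-fold higher on 25 and 24 reads. The log2 ratio of Golph3, 0.72 ± 0.42, was less than 2 counting errors from 0, and with windows of 5 partner bins it was 0.52 ± 0.32, under 1.5-fold.

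Towards Tars, the start of Amacr was 2.13-fold higher after degradation than in 1B1, with 4.16 ± 0.58, 3.83 ± 0.51 and 2.23 ± 0.38 in lines 1A2, 1F4 and 1B1 and 4.75 ± 0.70 after degradation. The log2 ratio of the Amacr start, 1.09 ± 0.33, was 0.62 ± 0.30 with windows of 5 partner bins, still past 1.5-fold. In the neighbouring window in Amacr described above, which shares 2 of its 3 bins with this one, the ratio was 0.38 ± 0.34. At the Amacr start 1B1 stood apart, since 1A2 and 1F4 were close to the degraded library. The starts of Rxfp3, Slc45a2, C1qtnf3, Adamts12, Rai14, Brix1 and Rad1 had log2 ratios between −0.20 and 0.20, all within their counting errors. With windows of 5 partner bins the ratio of Rai14 was 0.65 ± 0.32, past 1.5-fold. SNORA17, 544 kb away, had a log2 ratio of −0.47 ± 0.33, beyond its counting error but under 1.5-fold. The remaining 14 starts had fewer than 20 reads in at least 1 library. Among these, and named after its values were seen, Cdh6, which encodes a cadherin and starts 1268 kb away, had 14, 11, 12 reads in the untreated lines and 34 after degradation.

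The contact pattern of Npr3 was compared with that of the other 32 gene starts as viewpoints, by the Pearson correlation of log2 observed/expected over 5 bands of separation in 4 libraries (20 values, which share libraries, depth and some bins). The most alike were Ttc23l (r = 0.76), the pseudogene Gm17044 (r = 0.75) and Amacr (r = 0.71). They start 1347, 1379 and 924 kb from Npr3 on the Tars side. Ttc23l and Gm17044 start less than 256.0 kb from the region's end at 10278401. From the band at 256.0 kb outwards their values therefore hold partners on the Sub1 side only, while those of Npr3 hold both sides. In the band from 256.0 to 499.2 kb, the log2 observed/expected difference between the degraded library and 1B1 was −0.33 for Ttc23l, −0.64 for Gm17044 and 0.00 for Amacr, against −0.37 for Npr3. Likeness over all bands thus went with different values in this band.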

How the data were processed

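Tiled Capture-C libraries were made from 4 mESC cultures, 1 per group. According to the methods and processing notes, the authors processed reads with HiC-Pro 2.11.4 on mm9, kept unique valid pairs inside the targets, binned them at 6.4 kb and balanced the maps with ICE, which equalises the sums of bins. The deposited values are this balanced contact signal, and each library sums to nearly the same total. Whole reads behind each value were recovered by solving 1 factor per bin (100% of values within 0.05 of a whole read; the solver was tested on simulated data). Expected values were means at each separation, with 1 unbalanced bin left out. Partner windows were 2 by 3 bins at least 4 bins from the viewpoint, and those with fewer than 20 reads in any library were not counted against the 1.5-fold limit. Boundaries were insulation minima in the mean of 1A2 and 1F4 (20-bin square, lowest within 10 bins, with a rise of 0.3 or more to either side inside 30 bins). With 1 library per group no test was made. Comparisons were the degraded library against 1B1, 1B1 against 1A2, 1B1 against 1F4 and 1F4 against 1A2, with the alternatives named in the closing section. Named partners were both boundaries, the gene body, all gene starts of the region, the 5 windows with the highest contact and the 5 lowest and 5 highest ratios (each with none more extreme within 5 bins), and the 3 gene starts with the most alike pattern. The viewpoint, sites and gene lists were chosen with earlier results of these data known. Array positions came from the study's methods. Genes were from GENCODE vM1. Python 3.11.15, NumPy 2.4.6, pandas 2.3.3, SciPy 1.17.1 and Matplotlib 3.10.9 were used.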

Additional observations from a re-analysis of the deposited data

Results flagged for a closer look

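Reads joining the Npr3 promoter with other captured regions, which none of the comparisons used, numbered 20 in the degraded library, 0.213% of the promoter's reads (95% Poisson interval 0.130% to 0.330%, counting error alone). The untreated libraries had 3 such reads in 1A2 (0.0311%), 8 in 1F4 (0.0644%) and 11 in 1B1 (0.114%, interval 0.0570% to 0.204%). The signal lies outside the region described, and its share was above that of each untreated library, while the interval of the degraded library overlapped that of 1B1.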

How the results depend on the processing

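No paired analysis was possible because each group was 1 library, and for the same reason no library could be left out of a group. Of the values recomputed under other settings, 131 results of the comparisons and 51 of named sites stayed within the 95% counting interval of the reported value (counts within 1.5 times), and 55 moved further. Of the values that are not counts, 12 changed sign, and the reported value of 0 of these lay beyond its interval. This interval is wider than the errors printed with the values, and of 169 values within it that are not counts, 26 moved by more than 1 such error. The cause of these shifts was not tested. For the degraded library against 1B1, the log2 share inside the domain was −0.12 with pairs under 3 bins left out. The sidedness difference was −0.40 in unbalanced reads and −0.30 over 50 bins a side. Without expected values the Tars-side boundary ratio was −1.55 and that of the gene body 0.16. As shares of the promoter's reads, the bands from near to far gave 0.38, −0.32, −0.82, −0.16, 0.63, and the band up to 249.6 kb gave 0.028 for 1B1 against 1F4. The insulation difference was 0.057 with a square of 10 bins and 0.027 in unbalanced reads, and with the smaller square it was 0.049 for 1F4 against 1A2, where the main value was −0.02. Counts of windows past the fold changed with the limits and with how many windows could be counted (180 in the report, 70 with 50 reads, 319 with 5 bins, 88 with the start bin, 256 by mean reads). As lower and higher windows for the degraded library against 1B1, 1B1 against 1A2, 1B1 against 1F4 and 1F4 against 1A2 in turn, a 2-fold limit gave 5 and 3, 1 and 0, 1 and 2 and 0 and 0. A minimum of 50 reads gave 4 and 9, 1 and 0, 2 and 0 and 0 and 0, windows of 5 partner bins 39 and 48, 29 and 5, 34 and 19 and 7 and 1, the start bin alone as viewpoint 14 and 9, 5 and 3, 13 and 2 and 5 and 7, and unbalanced reads 29 and 17, 10 and 1, 28 and 4 and 2 and 2. A mean of at least 20 reads over the libraries, a setting chosen after seeing the data, gave 44 and 35, 24 and 13, 29 and 19 and 12 and 12. Of 48 such shares, 10 lay on the other side of the share over all windows than in the report and 38 on the same side. Beside the 3 given for the degraded library, the 3 for 1B1 against 1F4 and the 2 for 1F4 against 1A2 with the start bin, these were higher windows in 1B1 against 1A2 with the start bin (3.41% against 3.25%) and in 1F4 against 1A2 by mean reads (4.69% against 4.59%). Gene starts at least 1.5-fold lower after degradation numbered 0 in unbalanced reads and 2 with a median in place of the mean over each separation, and 2 with windows of 5 bins. Depth limited which windows could be counted, since 180 of 446 windows reached 20 reads in each library.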
